A study of Mus musculus with 6 samples.

Results

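The 237 windows described here are the 1-Mb stretches of the mouse autosomes whose sparse CpGs, defined below, carried the least methylation in wild-type neocortex. They were chosen from 2370 windows counted from each chromosome's start, of which they form the lowest 10%. A CpG counted as sparse when 1 to 5 CpGs listed in any sample lay within 250 bp on either side, itself included, and as denser when more did. A window needed at least 20 sparse CpGs with at least 10 reads in all 6 samples, and windows were ranked by the mean level of those CpGs over the 3 wild-type (WT) samples. The members held 37596 sparse CpGs and the other 2133 windows held 231007. Because the WT levels at sparse CpGs chose the members, those levels are given as a description and carry no test. Tests were made on the denser CpGs, which the rule did not use, and on the Chd8+/- samples.

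The study read CpG methylation in neocortex DNA of postnatal day 5 mice with reduced representation bisulfite sequencing (RRBS): the enzyme MspI cuts at CCGG and bisulfite turns unmethylated cytosine into uracil. It compared 3 samples labelled Chd8+/-, with 1 copy of the chromatin remodeller gene Chd8 affected, with 3 labelled WT, to find methylation changes in a mouse model of a CHD8-linked neurodevelopmental disorder. Allele, strain and sex are not stated in the labels, nor are the animals behind the replicates, and p-values below measure only how far these samples scatter, which can be technical in part. The methylation level is the percent of reads kept as cytosine at a CpG. Coverage summed over listed cytosines ran from 45498222 to 54818138 in WT and from 32285980 to 39820333 in Chd8+/-, so each Chd8+/- library was shallower than each WT library. Chd8+/- replicate 3 stood above the other 5 samples in mean level, and results that rest on it are given with and without it. RRBS levels do not show gene expression, so neither the tissue nor the genotype label was checked against marker genes.

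In mammals most CpGs are methylated by the DNMT enzymes. The main exceptions are CpG islands, dense clusters at promoters that are kept free of methylation by CXXC-domain proteins and active histone marks. The transition zones beside islands, called shores, hold intermediate levels. Around the promoters of developmental regulators such as the Hox genes, Polycomb-marked unmethylated stretches can extend for many kilobases, and such stretches are known as methylation valleys. Sparse CpGs in RRBS lie outside or at the edge of such clusters and are often called background methylation.

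The promoters of 4 genes in the 10 lowest windows show what a sparse or dense unmethylated stretch looks like beside a methylated one. Each sequence is the 250 bases before the RefSeq start of the gene, from a table of the build GRCm38.p6, and was placed on the mm39 positions of the files by the spacing of its CpGs. It is read 5′ to 3′ on the gene's strand, and capitals mark the CpGs with at least 10 reads in all 6 samples. Zkscan4, a zinc finger gene with a SCAN domain, lay at chr13:21662769-21663018 (plus strand). H1f2, a linker histone gene, lay at chr13:23922540-23922789 (plus strand). Hoxa5, a homeobox gene of body patterning, lay at chr6:52181568-52181817 (minus strand). Itgb7, an integrin gene of lymphocytes, lay at chr15:102140371-102140620 (minus strand). Zkscan4 and Itgb7 were placed by only 4 listed CpGs between placed neighbours, H1f2 and Hoxa5 by 13 each. For a single promoter placed by 4 CpGs a chance match cannot be told apart from a true one, so the levels given for Zkscan4 and Itgb7 are those of the sites as placed.
Zkscan4: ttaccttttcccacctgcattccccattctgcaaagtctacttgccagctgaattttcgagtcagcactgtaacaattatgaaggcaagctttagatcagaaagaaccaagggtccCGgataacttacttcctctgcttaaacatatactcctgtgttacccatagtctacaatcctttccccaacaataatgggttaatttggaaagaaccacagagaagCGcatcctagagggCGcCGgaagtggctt
H1f2: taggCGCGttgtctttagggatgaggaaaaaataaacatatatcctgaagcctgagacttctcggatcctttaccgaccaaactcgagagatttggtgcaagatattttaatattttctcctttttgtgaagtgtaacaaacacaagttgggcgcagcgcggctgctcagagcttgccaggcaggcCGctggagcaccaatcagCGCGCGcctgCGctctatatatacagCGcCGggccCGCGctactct
Hoxa5: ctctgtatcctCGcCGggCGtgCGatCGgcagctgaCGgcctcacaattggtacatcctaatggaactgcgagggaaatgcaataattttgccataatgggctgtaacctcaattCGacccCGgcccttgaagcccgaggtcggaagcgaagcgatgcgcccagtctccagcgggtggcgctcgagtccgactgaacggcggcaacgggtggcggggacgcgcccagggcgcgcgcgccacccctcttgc
Itgb7: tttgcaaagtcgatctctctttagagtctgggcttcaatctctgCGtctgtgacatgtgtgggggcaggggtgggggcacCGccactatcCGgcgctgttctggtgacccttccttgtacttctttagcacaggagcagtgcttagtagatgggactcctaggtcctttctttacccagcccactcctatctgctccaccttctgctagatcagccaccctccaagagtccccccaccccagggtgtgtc
The 4 measured CpGs of Zkscan4, each with 4 listed CpGs around it, averaged 0.983%, 0.818% and 0% in WT and 1.82%, 0% and 0.244% in Chd8+/-, from 51 to 283 reads per CpG and sample. They are thus sparse CpGs that were nearly unmethylated in every sample. The 11 measured CpGs of H1f2, with 13 to 19 listed CpGs around them, had WT levels of 0.261% ± 0.452 and Chd8+/- levels of 0.319% ± 0.444 (SD, n = 3). At Hoxa5 the 8 measured CpGs had WT levels of 1.04% ± 1.05 and Chd8+/- levels of 2.78% ± 1.33 (SD, n = 3), and the groups overlapped. The 3 measured CpGs of Itgb7, with 4 or 5 listed CpGs around them, stood at 61.1%, 68.4% and 62.7% in WT and 47.2%, 58.3% and 37.3% in Chd8+/-, from 12 to 24 reads each. All 3 Chd8+/- values lay below all 3 WT values there, in a promoter picked for its level, and at that depth single CpGs ranged from 0% to 100% between samples.

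The lowest windows of all held the large histone gene cluster of chromosome 13. The window chr13:23000001-24000000 had sparse CpG levels of 30.5%, 30.3% and 29.5% in WT and 31.0%, 29.6% and 30.5% in Chd8+/-, over 158 CpGs. The groups overlapped, and 60.8% of these CpGs were below 20% in the Chd8+/- samples. Its 29 protein-coding genes placed include linker and core histone genes such as H1f2, H1f4, H2bc3, H3c6 and H4c1, whose products package DNA, beside Hfe, which regulates iron uptake. The window chr13:21000001-22000000 ranked second at 35.9%, 34.7% and 34.0% in WT and 32.6%, 34.9% and 34.6% in Chd8+/-, over 152 sparse CpGs. It held the histone genes H4c11 and H3c10, the zinc finger genes Zkscan4, Zkscan8 and Zscan26, and olfactory receptor genes such as Olfr1362. Between them chr13:22000001-23000000, with Zfp184 placed in it, ranked eighth at 47.3%, 45.4% and 45.0% in WT and 44.5%, 44.5% and 46.3% in Chd8+/-, over 90 sparse CpGs. The 54 genes between its placed flanks include further histone genes and many Vmn1r vomeronasal receptor genes, which were not placed in a window. In all 3 windows of the cluster the groups overlapped, and the Chd8+/- mean was above the WT mean in the first and below it in the other 2.

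In another 4 of the 10 lowest windows at most 1 protein-coding gene was placed. The window chr1:19000001-20000000 held 58 sparse CpGs at 37.8%, 36.8% and 37.2% in WT and 37.0%, 38.2% and 37.2% in Chd8+/-. No promoter was placed inside it, and none of its listed CpGs had more than 20 others around it. The nearest placed promoter is that of Paqr8 on its far side, with none placed before it. The 8 genes that come before Paqr8 in the table include Crisp4, Pkhd1, Mcm3 and the AP-2 genes Tfap2d and Tfap2b, and which of them lie in the window was not tested. The window chr11:24000001-25000000 had levels of 44.7%, 44.7% and 41.1% in WT and 46.7%, 44.9% and 44.0% in Chd8+/-, over 129 sparse CpGs, and contained Bcl11a, a zinc finger regulator of cortical neurons. There 51.2% of the sparse CpGs were between 20% and 80%, the largest such share among the 10 windows. The window chr12:12000001-13000000 had levels of 44.0%, 44.0% and 46.2% in WT and 45.6%, 47.8% and 46.9% in Chd8+/-, over 110 sparse CpGs. It contained Cyria, a regulator of actin, and Mycn, a growth regulator of neural progenitors, comes between its placed flanks without being placed in it. The window chr9:91000001-92000000 had levels of 45.6%, 42.7% and 46.2% in WT and 46.0%, 44.3% and 46.9% in Chd8+/-, over 85 sparse CpGs, and contained Zic1, a regulator of cerebellar and dorsal neural development. The WT and Chd8+/- samples overlapped in each of these 4 windows.

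The HoxA and HoxC clusters and a gene-dense stretch of chromosome 10 made up the remaining 3. The window chr6:52000001-53000000, with Hoxa5, Hoxa9, Hoxa13 and Evx1, had levels of 40.4%, 41.0% and 38.4% in WT and 42.3%, 40.7% and 42.7% in Chd8+/-, over 185 sparse CpGs. It was also rich in clustered CpGs, with 615 listed CpGs that had more than 20 listed CpGs around them. The window chr15:102000001-103000000, with Hoxc4, the retinoic acid receptor gene Rarg and the general activator Sp1, had levels of 46.5%, 46.5% and 46.4% in WT and 46.1%, 45.9% and 46.6% in Chd8+/-, over 276 sparse CpGs. The window chr10:81000001-82000000 held 36 protein-coding genes, among them Eef2 for translation elongation and Celf5 for splicing, and had levels of 47.6%, 46.2% and 45.0% in WT and 46.3%, 45.7% and 48.6% in Chd8+/-, over 120 sparse CpGs. The WT and Chd8+/- ranges overlapped in these windows too, so in none of the 10 lowest were the groups apart. This does not extend to all members. At rank 11, chr2:146000001-147000000 had 45.9%, 46.6% and 47.1% in WT and 49.2%, 51.0% and 49.2% in Chd8+/-. At rank 36, chr17:8000001-9000000 had 54.9%, 54.1% and 53.9% in WT and lower levels of 53.1%, 51.2% and 53.8% in Chd8+/-. The share of windows with the groups apart at sparse CpGs was not counted.

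**Figure D1:**
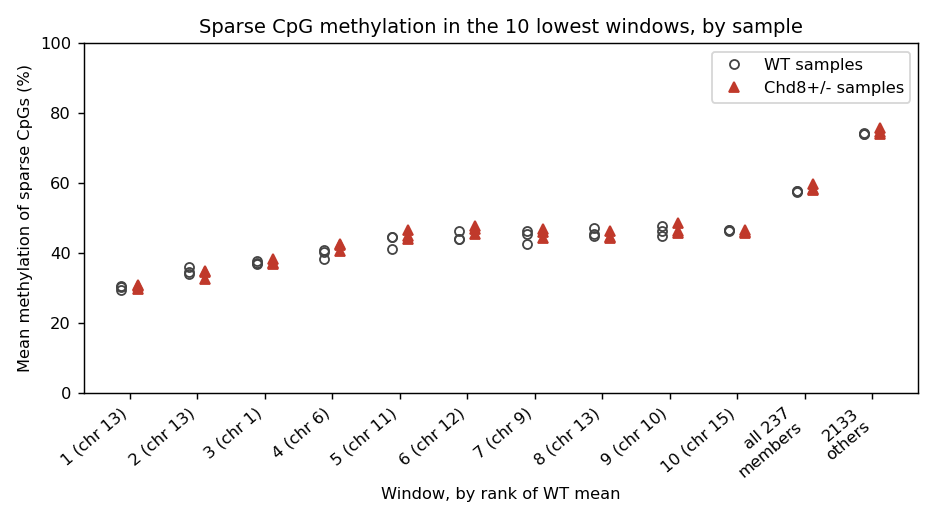
Mean methylation of sparse CpGs (percent, vertical axis) in the 10 member windows with the lowest WT mean, and averaged over all 237 members and the 2133 other windows. Each open circle is a WT sample and each triangle a Chd8+/- sample. The 10 windows lie between 29.5% and 48.6%, the averages over members between 57.5% and 59.9%, and the averages over other windows above 74%.

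Across the 237 members the WT mean ran from 30.1% to 61.8% with a median of 59.3%, against a median of 73.0% and a maximum of 93.5% in the other windows. The lowest 10 windows are therefore a tail, and 3 in 4 members lay above 56.4%. The last windows inside the limit were chr2:165000001-166000000 at 61.83% and chr12:98000001-99000000 at 61.85%, and the first outside were chr7:99000001-100000000 and chr6:88000001-89000000, both at 61.91%. The step at the limit was smaller than the SD between the WT samples of each of these 4 windows, which was 0.431 to 1.98 points. Cdh22, a cadherin gene, and Sulf2, a sulfatase gene, lie in the first of them, and Gata2, a blood and neuronal regulator, lies just outside in the last.

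Averaged over members, sparse CpGs in the WT samples stood at 57.7%, 57.7% and 57.5%, and in the Chd8+/- samples at 57.9%, 58.4% and 59.9%. In the other windows the WT samples had 74.3%, 74.2% and 74.2% and the Chd8+/- samples 74.2%, 74.6% and 75.9%. In the Chd8+/- samples, which did not choose the members, the members were lower by 16.3, 16.2 and 16.0 points (mean difference -16.1, SD 0.144, n = 3). The exact two-sided sign-flip test gave p = 0.25, the smallest value that 3 samples allow. Ranking by the Chd8+/- samples instead chose 207 of the 237 members again.

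A lower mean can come from more unmethylated CpGs or from lower levels throughout, and both were measured. In the Chd8+/- samples 22.0% of the members' sparse CpGs had a mean level below 20%, against 10.5% in the other windows. The share from 20% to below 80% was 37.3% against 32.9%, and the share at 80% and over was 40.7% against 56.6%. Among CpGs at 20% and over, the mean was 73.9% in members and 79.7% in the other windows. The members therefore differed at both ends, with about 2 times the share of nearly unmethylated CpGs and also lower levels among the rest. Across deciles of all windows ranked by the WT mean, the share below 20% fell from 22.4% in the members to 16.6% in the next decile and 0.428% in the last.

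**Figure D2:**
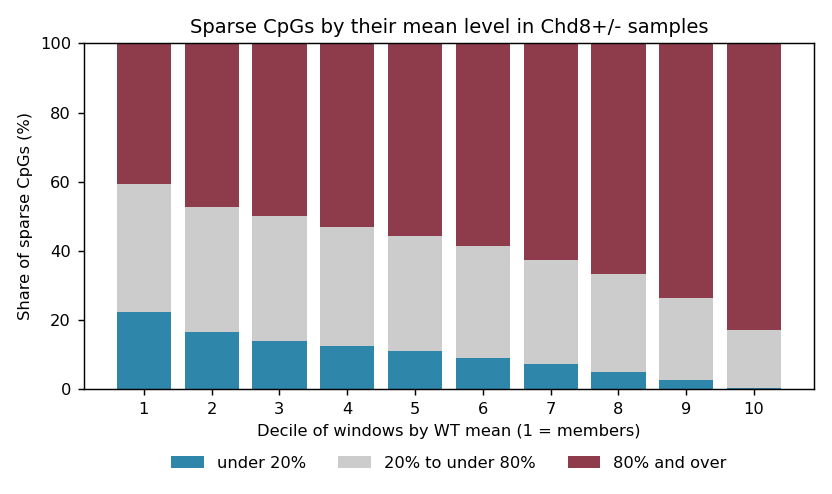
Sparse CpGs by their mean level in the 3 Chd8+/- samples (stacked share of CpGs in percent, averaged over windows) for deciles of the 2370 windows ranked by their WT mean, the members being decile 1. The blue share below 20% is 22.4% in the members and 0.428% in decile 10, and the share at 80% and over runs from 40.7% to 82.8%.

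The members' sparse CpGs lay nearer to dense clusters than those of other windows. Of them, 13.7% were within 2 kb of a CpG with more than 10 listed CpGs around it, against 8.32% in the other windows, and 52.2% against 64.6% were more than 20 kb away. Sparse CpGs were less methylated near clusters in both sets. At each distance the members were lower in the Chd8+/- samples. Up to 500 bp the level was 19.4% ± 0.727 in members and 24.4% ± 0.910 in others (SD, n = 3 here and below). Between 1 and 2 kb it was 46.1% ± 1.18 against 62.7% ± 0.927, the widest gap of the profile. Beyond 20 kb it was 64.3% ± 0.977 against 75.4% ± 0.912, over 19612 and 149334 CpGs, so the difference was also present far from any listed cluster. The word background in the name of these domains thus covers shore CpGs as well as distant ones. With only sparse CpGs at least 2 kb from such clusters in the rule, 236 windows formed the lowest 10% and were 15.0 points below the others in Chd8+/-.

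**Figure D3:**
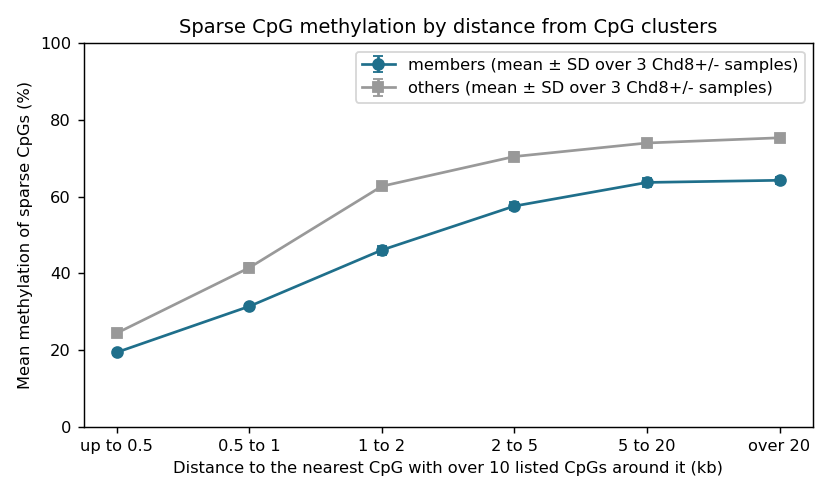
Mean methylation of sparse CpGs (percent) in the Chd8+/- samples by distance to the nearest CpG with more than 10 listed CpGs around it (kb). Points are means and bars SD over 3 samples, for member and other windows. Both lines rise with distance, and the members stay lower, from 19.4% against 24.4% up to 0.5 kb to 64.3% against 75.4% beyond 20 kb.

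The denser CpGs of the members, which took no part in the choice, were also less methylated. Over the 236 members with at least 5 of them the WT samples had means of 21.2%, 21.3% and 21.3% and the Chd8+/- samples 21.4%, 21.7% and 22.0%. Over 1973 other windows it lay between 33.8% and 34.4%. The members were lower in 6 of 6 samples, by 12.3 to 12.6 points (mean difference -12.5, exact two-sided sign-flip p = 0.03125, the smallest value that 6 samples allow). This p-value measures agreement between samples over the same windows, not the scatter between windows. With at least 50 sparse CpGs per window in the rule, which removed many CpG-poor windows, the difference was -7.74 points (exact p = 0.03125). Leaving out any 1 sample gave exact p = 0.0625, the smallest for 5 samples. By deciles of the WT mean, the Chd8+/- level at denser CpGs was 21.7% in the members and 24.6%, 26.7% and 27.9% in deciles 2 to 4. It was 44.4% in decile 9 and 70.4% in decile 10. The members thus lay much nearer to the next deciles than to the last.

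The difference in points fell with CpG density, as did the level in both sets. At CpGs with 6 to 10 listed CpGs around them the level was 42.3% in members and 59.4% in others, a difference of -17.2 points. At 11 to 20 it was 13.6% against 18.3%, a difference of -4.72 points. Both had the same sign in 6 of 6 samples (exact sign-flip p = 0.03125, Benjamini-Hochberg 0.0469 over a family of 3). These values too measure agreement between samples over the same windows. At more than 20, where CpG islands lie, the levels were 1.87% and 1.85%. That difference of 0.0134 points ranged from -0.0312 to 0.0595 between samples (exact p = 0.4375, Benjamini-Hochberg 0.4375), so at island-like CpGs no difference between members and others was found beyond the spread. Both sets lie near the floor of the scale there, which leaves little room for a lower level in members. The low level of the members was thus measured at sparse and moderately dense CpGs.

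Members were rich in listed CpGs and placed promoters, as were the next deciles. They held a median of 152 usable sparse CpGs, 913 listed CpGs and 256 listed CpGs with more than 20 around them, against 91, 465 and 115 in the other windows. No CpG of the last kind was listed in 13 of 237 members (5.49%) and in 486 of 2133 others (22.8%). Reads per sparse CpG were alike, with medians of 43.3 and 43.5. A member held between 1210 and 24389 reads over its sparse CpGs per library, with a median of 8558. The median number of listed CpGs was 913, 886, 751 and 880 in the first 4 deciles of windows and fell to 118 in the last, so the members did not stand apart from the next deciles by this number.

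**Figure D4:**
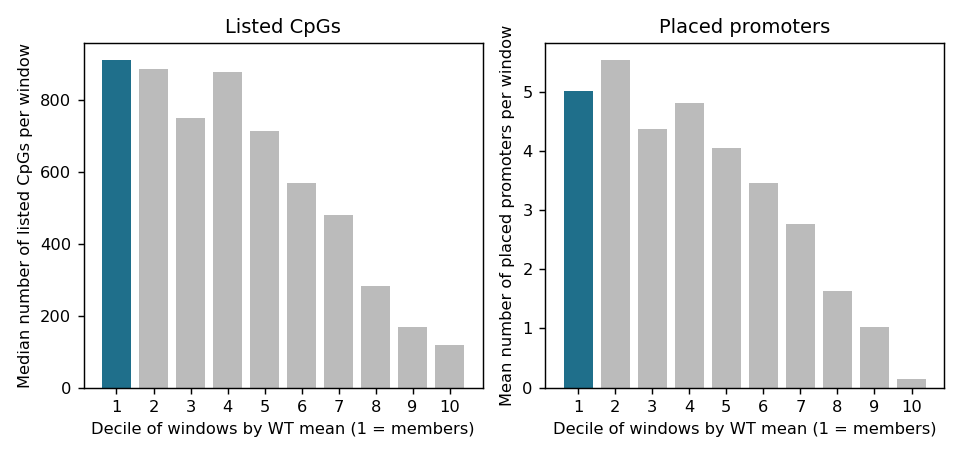
Median number of listed CpGs per window (left) and mean number of promoters placed by CpG spacing per window (right) for deciles of the 2370 windows ranked by WT mean, with the members as decile 1 (dark). The first 4 deciles have 751 to 913 listed CpGs and 4.37 to 5.54 promoters, and the last has 118 and 0.139. Placing a promoter needed at least 7 listed CpGs, so the right panel depends on the left.

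Placed promoters followed the same order. Placing one needed at least 7 listed CpGs, so this count depends on the number of listed CpGs and is not a separate measure of gene content. Members held on average 5.02 promoters placed by CpG spacing and the next decile 5.54, against 0.139 in the last decile. None was placed in 39 members (16.5%) and in 763 others (35.8%). Of 813 member promoters with at least 3 measured CpGs, 788 (96.9%) had a mean below 20% in Chd8+/-, and of 4348 in other windows 4156 (95.6%) had. Among promoters with only sparse CpGs, whose levels the rule used, 13 of 16 were below 20% in members and 30 of 84 in others. The Zkscan4 promoter printed above, as placed, is of this kind.

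By gene family, the members held all placed Hox genes and nearly all placed histone genes. Of 10998 protein-coding genes placed in windows, 1774 (16.1%) lay in members, which gives the level to read the lists against. All 21 Hox genes placed were in 4 members: HoxA at rank 4 of the WT mean, HoxC at rank 10, HoxD at rank 13 and HoxB at rank 22. The HoxD window chr2:74000001-75000000 had sparse CpG levels of 47.9%, 48.0% and 46.7% in WT and 48.6%, 48.9% and 48.0% in Chd8+/-. The HoxB window chr11:96000001-97000000 had 51.7%, 51.1% and 51.0% in WT and 52.1%, 50.9% and 53.4% in Chd8+/-. The 4 windows are 4 loci, so their 21 genes are not 21 separate cases. Of 42 histone genes placed, 40 were in 5 members, 30 of them in 2 windows of chromosome 13. The 2 outside were the linker histone genes H1f0 and H1f10, while the linker histone genes H1f7 and H1f8 were in members, at ranks 99 and 207.

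Developmental transcription factors outside the Hox clusters were also common in the members. In a list by symbol of families such as Sox, Pax, Lhx, Dlx, Emx, Zic, Nkx, Tbx, Fox and Gata, added after the windows were seen, 28 of 80 placed genes (35.0%) were in 24 members. They include Pax6 and Emx2, which pattern the cortex, Lhx2, a selector of cortical fate, Sox2 of neural stem cells, and Dlx1 and Dlx2 of inhibitory neurons. The Pax6 window chr2:105000001-106000000 ranked 47th, at 55.8%, 55.8% and 54.8% in WT and 57.7%, 54.7% and 56.5% in Chd8+/-. The Sox2 window chr3:34000001-35000000 ranked 35th, at 54.3%, 54.4% and 54.0% in WT and 54.3%, 57.6% and 57.8% in Chd8+/-. The other 52 genes of the list were outside, some of them in windows just past the limit. The Gata2 window ranked 239th, that of Six3 246th, that of Zic5 247th and that of Lhx6 251st. The windows of Emx1 and Otx2 ranked 591st and 640th. Others lay much further out, such as those of Pax5 at rank 1003, Sox21 at 1148, Pou3f2 at 1715 and Sox30 at 1845. The list thus did not stop at the limit of the members and reached far into the other windows. Of these 28 genes 12 had a promoter with at least 3 measured CpGs, and all 12 were below 20% in Chd8+/-, with the highest, Pax6, at 6.23%. That is near the share of all such promoters, 96.9% in members and 95.6% in other windows. Dlx1 was at 0% in all 6 samples over 6 CpGs.

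Most other families were near or below the share of all genes. Zinc finger genes (Zfp) had 41 of 214 (19.2%) in members, olfactory receptor genes 15 of 95 (15.8%), glutamate and GABA receptor genes 3 of 18 (16.7%), and cadherin genes 1 of 8. Vomeronasal and trace amine receptor genes had 5 of 15 placed (33.3%), all in 1 window of chromosome 17. Only 15 of 333 such genes and 95 of 938 olfactory receptor genes were placed, so these shares cover a small part of each family. The Vmn1r genes between the placed flanks of the histone run of chromosome 13, whose windows are all members, are not in the count. Xenobiotic enzyme genes had 8 of 25 (32.0%), of which 5 Cyp2d genes shared 1 window. None of 22 keratin or 9 defensin genes was in a member. Serpin genes had 1 of 6, and the single placed genes of the urinary protein and NK receptor lists were outside, while no Skint gene was placed. Of housekeeping families added after the values were seen, ribosomal protein genes had 9 of 59 (15.3%), complex I genes 5 of 32 (15.6%) and proteasome genes 0 of 27.

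Members tended to lie side by side. Of the 237, 87 (36.7%) touched another member, against 348 of 2133 other windows (16.3%) that touched one. They formed 150 single windows, 33 pairs, 3 runs of 3 and 3 runs of 4. The run chr2:71000001-75000000, with a mean WT level of 54.3%, spanned Dlx1, Dlx2, the zinc finger gene Sp9 and the HoxD cluster. The run chr1:61000001-65000000 at 58.8% held the axon guidance receptor gene Nrp2, Creb1 and the Wnt receptor gene Fzd5. The run chr8:88000001-92000000 at 59.1% held Sall1, Tox3 and the remodeller gene Chd9. The histone run chr13:21000001-24000000 averaged 37.0%, and chr10:79000001-82000000, with 114 protein-coding genes placed, averaged 54.7%. The remaining run of 3, chr11:94000001-97000000, averaged 58.0% and held the HoxB cluster. The share of members that touch depends on the cut and the window borders, and was 22.0% for the lowest 5% and 30.3% with windows shifted by 500 kb.

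Chromosomes differed in how many members they carried. The share ran from 5 of 155 windows (3.23%) on chromosome 3 to 19 of 117 (16.2%) on chromosome 11, and chromosome 2 held the most, 25 of 174 (14.4%). Chd8 itself lies on chromosome 14, where 10 of 115 windows (8.70%) were members. In the first 13 Mb of a chromosome lay 11 members (4.64%) and 177 others (8.30%), and in the last 10 Mb 25 members (10.5%) and 157 others (7.36%).

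The spread between samples in a member followed its number of CpGs. The SD over the 3 Chd8+/- samples had a median of 1.37 points in members and 1.55 in others, and over the WT samples 1.00 and 1.18. At 100 to 199 sparse CpGs the Chd8+/- medians were 1.35 and 1.39, and at 200 or more 1.20 and 1.27. At 20 to 49 CpGs they were 2.39 over 13 members and 1.96 over 554 others. Windows with more CpGs thus varied less in both sets, and at 100 CpGs or more members and others were within 0.1 points of each other.

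The comparison of genotypes asks whether Chd8+/- neocortex differs from WT in these windows. At the denser CpGs of the members WT averaged 21.3% ± 0.0641 and Chd8+/- 21.7% ± 0.280 (SD, n = 3), which is 0.437 points more (standard error 0.166). No WT sample reached the lowest Chd8+/- sample. The two-sided permutation p over samples was 0.1 (exact), as low as 3 against 3 can give. Over the same CpGs and without Chd8+/- replicate 3, Chd8+/- was 0.306 points above WT. Weighting each CpG by its reads, with the members chosen again by the weighted levels, gave 1.62 points (exact p = 0.2). In that setting the difference was larger in the other windows, as given below. By density it was 0.793 points at 6 to 10 listed CpGs (exact p = 0.1), 0.263 at 11 to 20 (exact p = 0.2) and 0.0253 at more than 20 (exact p = 0.6). In this family of 3 none could pass an adjusted threshold of 0.05.

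In the other windows the denser CpGs differed by 0.313 points, so the members' genotype difference was larger by 0.124 points (exact p = 0.1, the smallest possible). That excess was 0.000198 points with at least 50 sparse CpGs per window (exact p = 1) and turned to -0.143 points with reads as weights (exact p = 0.2). It was 0.0504 points without WT replicate 3, 0.0643 without Chd8+/- replicate 2 and 0.189 without Chd8+/- replicate 1, so its size rested on single samples. In all these settings the members were chosen again. The Chd8+/- mean was above the WT mean at denser CpGs in 163 of 236 members (69.1%) and in 1232 of 1973 others (62.4%). Each Chd8+/- sample exceeded each WT sample in 27 of 236 members (11.4%), beside 9.78% of all 2209 windows. The reverse held in 1 member (0.424%), beside 2.54% of all windows. Depth moved with genotype, as each Chd8+/- library was shallower, and its part in these differences was not tested.

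No single window was called. In edgeR's quasi-likelihood test at denser CpGs, 0 of 2207 windows (0%) had a Benjamini-Hochberg adjusted p under 0.05, and the lowest was 0.0766. At an unadjusted p under 0.05, 130 windows were higher in Chd8+/- (5.89%) and 15 lower (0.68%). Of 236 members 12 were higher (5.08%) and 0 lower, a share near that of all windows. The direction in this test is that of the reads summed over a window, in which deep CpGs weigh more, and in 2 of these 12 members the unweighted mean level was lower in Chd8+/-. With limma and with overdispersed logistic regression the count of calls was also 0, with 150 and 142 windows at an unadjusted p under 0.05. By that direction, the member with the smallest p among those higher was chr2:146000001-147000000, with Nkx2-4 and the exonuclease gene Xrn2, with unweighted means of 8.48%, 7.81% and 7.56% in WT and 8.04%, 7.72% and 9.94% in Chd8+/- (edgeR adjusted p = 0.688). Among those lower it was chr10:102000001-103000000, with means of 0.263%, 1.15% and 0.600% in WT and 0.449%, 0.548% and 0.148% in Chd8+/- (edgeR adjusted p = 0.688). At these denser CpGs the samples of the groups overlapped in both. EdgeR's test was also run without Chd8+/- replicate 3, with windows and members chosen again. At an unadjusted p under 0.05, 79 of 2227 windows were then higher in Chd8+/- and 30 lower. Of 237 members 10 were higher and 4 lower in that run, so the lean toward higher windows was weaker without that replicate.

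At the sparse CpGs the genotype difference used the WT values that chose the members and is given without a test. It was 1.11 points in members and 0.673 in others. Without Chd8+/- replicate 3, over the same CpGs, it was 0.543 and 0.186 points. Chd8+/- replicates 1, 2 and 3 were above the WT mean in 142, 159 and 214 of the 237 members (59.9%, 67.1% and 90.3%). In the other windows the shares were 50.5%, 58.8% and 82.1%. Replicate 3 thus carried much of the difference in both sets. The samples that rank the windows bear on this value, which was 0.980 points when all 6 samples ranked the windows and 0.800 points when the Chd8+/- samples did, over the windows each ranking put lowest. With reads as weights, and the members chosen again by the weighted levels, it was 2.03 points. The next 2 deciles of windows had 1.10 and 1.11 points, so the lowest decile did not stand apart. Over all 2370 windows edgeR's test at sparse CpGs made 0 calls (0%), with 113 windows higher (4.77%) and 10 lower (0.422%) at an unadjusted p under 0.05. The limma and logistic fits also made 0, with 178 and 116 windows at an unadjusted p under 0.05. In edgeR's test without Chd8+/- replicate 3, with windows chosen again, 69 of 2378 windows were higher and 53 lower at that threshold.

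**Figure D5:**
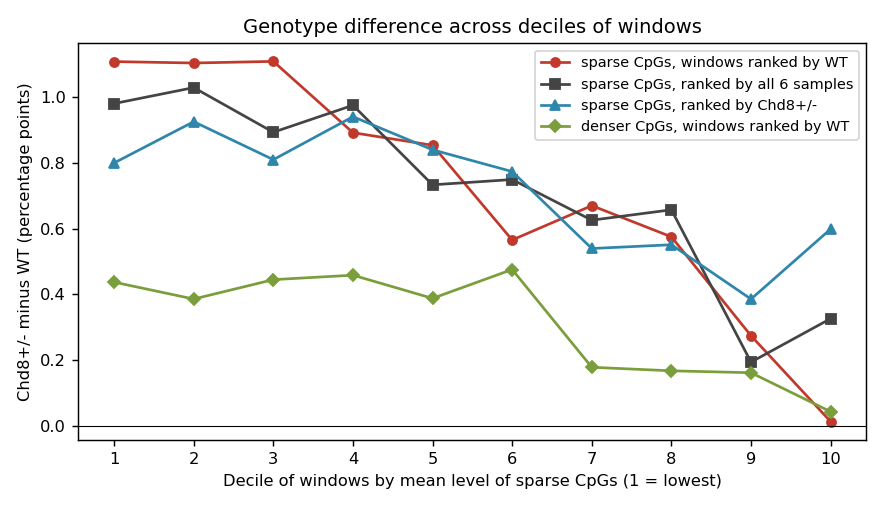
Difference in mean methylation between Chd8+/- and WT (percentage points) for deciles of the 2370 windows ranked by the level of sparse CpGs, at sparse CpGs with windows ranked by WT, by all 6 samples or by Chd8+/-, and at denser CpGs ranked by WT. In decile 1 the values are 1.11, 0.980, 0.800 and 0.437 points, and those of deciles 2 and 3 are alike.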

How the data were processed

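RRBS libraries were made from P5 neocortex DNA with MspI digestion, size selection and bisulfite conversion, per the labels' protocols. Bismark 0.20.0, Trim Galore 0.4.4 and SAMtools 1.9 are listed with build mm39, per the submitters' processing notes; tool settings are not given in the sources used here, and molecular identifiers are not mentioned, so read counts are not counts of molecules. The authors deposited, per cytosine, coverage as a count of reads and the shares read as C and T in percent, per the file headers. The lowest coverage listed was 10 reads, the median 20 to 24, and summed coverage ran from 32285980 to 54818138. Coverage times percent was whole within 0.02 reads for 99.96% to 99.97% of cytosines and was rounded.

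Strands were merged by adding reads, and 269137 of 534921 autosomal CpGs with at least 10 reads in all 6 samples were sparse. Window levels are unweighted means over CpGs, so the depth of a CpG does not weight it. Per-sample means were compared by exact two-sided permutation or sign-flip tests (scipy 1.17.1). Windows were tested on methylated and unmethylated counts summed per window with edgeR 4.0.16 (quasi-likelihood, a coverage term per sample, Benjamini-Hochberg over all windows), and limma 3.58.1 and overdispersed logistic regression were alternatives. The edgeR, limma and logistic fits were run on simulated counts with changes far larger than the genotype differences reported here. That check does not show whether changes of the reported size would be called, and it did not cover the exact tests. Other steps used R 4.3.3, Python 3.11.15, numpy 2.4.6, pandas 2.3.3 and matplotlib 3.10.9. The alternatives were other coverage minimums, windows, cuts, rankings and weights, and each sample left out.

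No mm39 annotation was used. Gene names come from RefSeq promoters (GRCm38.p6), placed on listed CpG positions by CpG spacing alone, with at least 7 listed CpGs matched and no listed CpG under the sequence unexplained. Of 20355 sequences with at least 5 CpGs 8960 were placed, 99.6% on the table's chromosome and 99.9% in its order. Genes between placed promoters of 1 window were counted in it. Promoters between placed neighbours needed 4 listed CpGs; 13.8% were found, against 1.09% in a neighbouring interval. The CpG spacing method was added after the values were seen. Windows named are the 10 lowest, the 5 longest runs (with a sixth of equal length), 2 on either side of the limit and the smallest p in each direction. Single genes were named after their values and windows were seen. The members and gene lists were chosen with earlier results of these data known.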

Additional observations from a re-analysis of the deposited data

How the results depend on the processing

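The genotype differences and the Chd8+/- level difference cannot give p under 0.05 with these sample numbers, so only their direction and size are compared across settings. The excess of the members' genotype difference at denser CpGs over that of other windows turned to -0.143 points with reads as weights (exact permutation p = 0.2). It ranged from 0.0504 to 0.189 points with each sample left out. The members were chosen again in each of these settings. The difference in level between members and others at denser CpGs ranged from -13.1 to -12.2 points with each sample left out, each with exact p = 0.0625, the smallest that 5 samples allow; in all 6 samples it ranged from -13.1 to -7.74. The genotype difference in members with each sample left out ranged from 0.328 to 0.586 points at denser CpGs and from 0.481 to 1.53 points at sparse CpGs, the members being chosen again each time. At sparse CpGs the members stayed below the others in Chd8+/- by differences of -19.0 to -13.4 points. The share of members touching another was 30.3% with windows shifted by 500 kb, 22.0% for the lowest 5% and 51.3% for the lowest 20%. The count of windows called at denser CpGs was 1 at an adjusted p under 0.1, 2 with at least 50 CpGs per window and 2 with the replicate number as a block, none of them members. With each sample left out it ran from 0 to 9: 2 without WT replicate 2, 5 without WT replicate 3 and 9, of which 2 were members, without Chd8+/- replicate 1; the cause was not tested. At sparse CpGs the count was 0 in each setting run. Deviations of same-numbered samples correlated by 0.00477, 0.00381 and 0.0310 over windows, so the numbers were not taken as pairs, and the replicate block left the genotype differences of 0.437 and 0.124 points with exact p = 0.25, the smallest for 3 pairs.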
